A study of Mus musculus with 6 samples.

Results

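Nuclear genes encode most subunits of respiratory complex I, the enzyme that passes electrons from NADH to ubiquinone and pumps protons across the inner mitochondrial membrane. The 37 genes described here are the rows of the deposited table named Ndufa, Ndufb, Ndufc, Ndufs or Ndufv with a number, and Ndufab1, out of 49585 gene rows. They comprise 13 Ndufa genes, 10 Ndufb, 2 Ndufc, 8 Ndufs, 3 Ndufv and Ndufab1, lie on 15 chromosomes and were chosen by name. By name, 11 count as core (Ndufs and Ndufv) and 26 as accessory. Ndufs and Ndufv also hold accessory proteins, so a stricter core of 7 subunits with bacterial counterparts was kept beside it.

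The study profiled ribosome-protected fragments, the pieces of mRNA shielded by ribosomes from nuclease, in hearts of male mice labelled as 8 or 9 weeks old. The 3 GC libraries are ground controls at 1 g, described as C57BL/6 J mice housed under conditions like those in orbit, and the 3 PG libraries are mice held at 0.167 g, lunar gravity, in a cage unit spun at 31 rpm on a radius of 15 cm in orbit. Spaceflight and the level of gravity change together between the groups and cannot be told apart. No matched mRNA measurement was used, so mRNA level and translation cannot be told apart. The labels mention 6 ground mice per mission without saying which mission each library belongs to. They do not say that the libraries come from separate animals, so the spread behind the p-values may be technical.

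Complex I is shaped like an L. The arm in the matrix carries the flavin that accepts electrons from NADH and a chain of iron-sulfur clusters that leads to the ubiquinone site, and all 7 catalytic core proteins encoded in the nucleus sit there. The membrane arm pumps protons with subunits encoded by mitochondrial DNA, wrapped in accessory proteins made in the cytosol that are needed for assembly and stability. Heart muscle, which beats without rest on oxidative metabolism, is rich in the complex. Of the members, 16 were assigned to the matrix arm and 19 to the membrane arm. Ndufab1, the acyl carrier protein, sits in both arms, and Ndufa4, despite its name, is now placed in complex IV.

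The libraries held 2212473 to 3196070 exon reads, of which Lars2 and Tmem38b together took 45.5% to 52.5%. Outside these rows 1105514 to 1663167 reads remained, and the members drew 1.33% to 1.61% of them. All 37 members passed the filter on low counts, with 572 (Ndufa6) to 10401 (Ndufv1) reads over the 6 libraries. As a check of the heart label, 12 of 12 ventricular cardiomyocyte markers were detected. Their summed level ran from 57445 to 64847 CPM in GC and from 46883 to 54801 in PG, without overlap. CPM are read counts scaled to library size with TMM factors. Of the 12 markers, 3 were called lower in PG (adjusted p under 0.05, edgeR) and none higher. Among all genes tested 0.329% were called lower. In other lists, 1 of 5 smooth muscle and pericyte markers tested, the 1 liver marker tested and the 1 kidney marker tested were called lower. Fibroblast markers (6, summed level 570 to 638 CPM in GC and 540 to 552 in PG), adipocyte markers (4, 223 to 235 and 142 to 185, Ucp1 at 0) and kidney markers (4, 19.6 to 29.4 and 0.318 to 5.64) also had every PG library below every GC library, while the 7 other marker lists overlapped. The part of these shifts in the values below was not tested, and in whole hearts fewer cells of a type and less RNA per cell cannot be told apart.

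No single nuclear complex I gene passed the test between lunar gravity and ground control, yet nearly the whole group leaned the same way. In edgeR's quasi-likelihood test over 9124 genes, 0 of 37 members had a Benjamini-Hochberg adjusted p under 0.05, where 0.581% of all genes tested were called, and the lowest adjusted p was 0.0594 for Ndufb10 and Ndufa13. At an unadjusted p under 0.05, 15 members were lower in PG (5.62% of all genes were) and 0 were higher (4.82% of all genes were). The log2 fold change was negative for 34 of 37 members, against 50.2% of all genes tested. Its median was -0.20 for the members and -0.0017 for all genes. With scaling to library size alone, which raised the median of all genes to 0.06, 31 members were negative and their median was -0.15. For 19 members every PG library lay below every GC library, which held for 8.25% of all genes, and for 0 members every PG library lay above (8.06% of all genes).

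**Figure D1:**
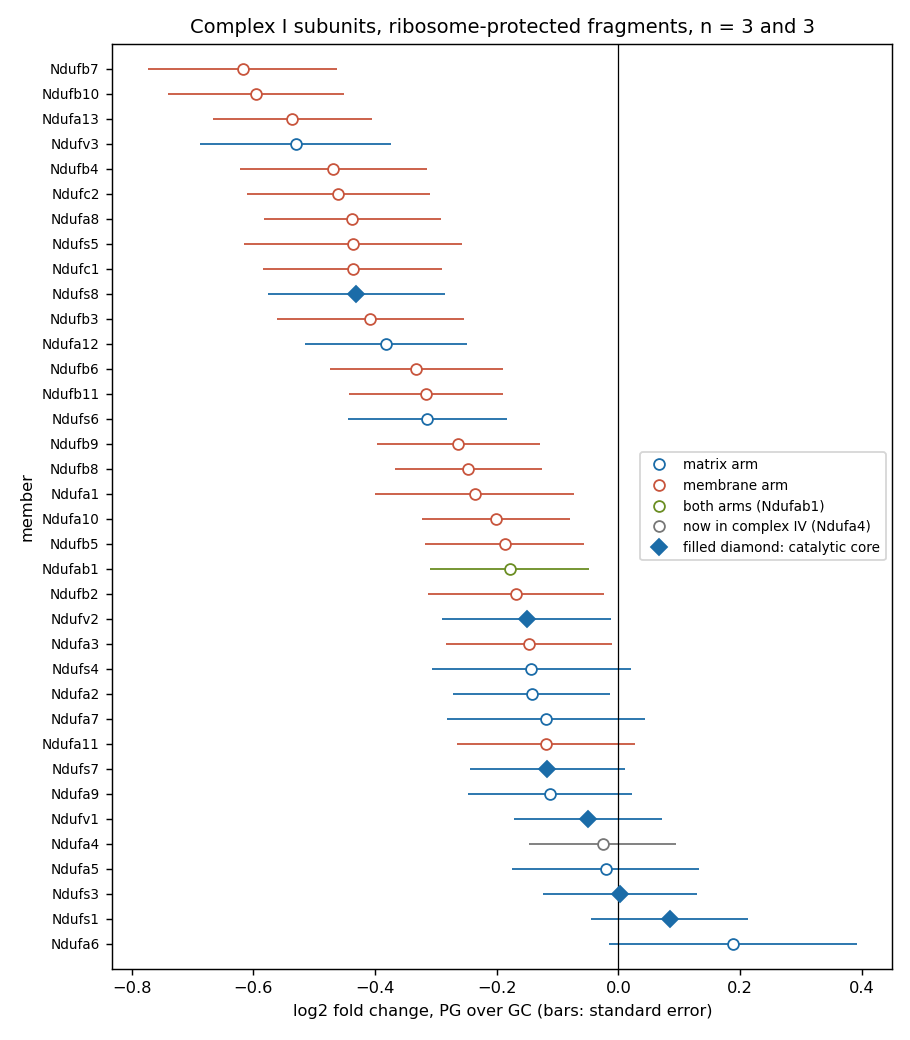
Log2 fold change of 36 of the 37 members, PG over GC, on the x axis, with bars of 1 standard error, from edgeR with n = 3 and 3. Open circles are accessory subunits, filled diamonds catalytic core subunits, and colour gives the arm of the complex. The points run from -0.62 (Ndufb7) to 0.19 (Ndufa6), red membrane-arm circles gather on the left, and Ndufs3, Ndufs1 and Ndufa6 are the points not left of 0.

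The lowest p-values belonged to accessory subunits, mostly of the membrane arm. Ndufb10 (ENSMUSG00000040048, chr17:24722060-24724478) encodes a disulfide-bonded subunit on the intermembrane side of the pump. It stood at 535, 513 and 399 CPM in GC replicates 1, 2 and 3 and at 276, 291 and 391 CPM in PG replicates 1, 2 and 3. Every PG library was below every GC library, but PG replicate 3 came close to GC replicate 3. The means were 482 ± 72.7 and 319 ± 62.5 CPM (SD, n = 3), 1.51-fold lower in PG. The log2 fold change was -0.60 ± 0.14 (SE), at an adjusted p of 0.0594 (edgeR).

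Ndufa13 (ENSMUSG00000036199, chr8:69894180-69902558), also known as GRIM-19 and studied in cell death as well as in complex I, gave the tightest separation of these. Its level was 228, 230 and 200 CPM in the GC libraries and 146, 158 and 149 CPM in the PG libraries. Here the lowest GC library stood well above the highest PG library. The level was 1.45-fold lower in PG (log2 fold change -0.54 ± 0.13, adjusted p 0.0594, edgeR). Of its reads 43.4% were unique, meaning that they fit a single place in the genome, and on unique reads alone the log2 fold change was -0.74.

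Ndufb7 (ENSMUSG00000033938, chr8:83566671-83571626), a small cysteine-rich protein of the intermembrane side, had the most negative log2 fold change of all members, -0.62 ± 0.16 (adjusted p 0.0674, edgeR). It read 169, 181 and 135 CPM in GC and 103, 87.2 and 126 CPM in PG. GC replicate 3 was again the lowest control and PG replicate 3 the highest flown library, and the groups did not overlap. Ndufv3, a small accessory protein beside the NADH site, read 264, 201 and 167 CPM in GC and 126, 145 and 166 CPM in PG, and its log2 fold change was -0.53 ± 0.16 (adjusted p 0.149, edgeR). In Ndufv3 replicates 3 of GC and PG were nearly equal.

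These 4 genes are the members that passed the threshold in any alternative analysis, all lower in PG. Ndufb10 and Ndufb7 were called in 8 of 17 alternatives, Ndufa13 in 7 and Ndufv3 in 3. With unique reads Ndufa13, Ndufb10 and Ndufb7 were called, where 0.623% of all genes were called lower. With DESeq2, which gave an adjusted p to 36 members, these and Ndufv3 were called, where 3.28% of genes with an adjusted p were called lower, and the same 4 were called with no filter (0.599% lower). The authors' expression values, limma-voom and a minimum count of 30 called the same 3 genes as unique reads (0.588%, 0.537% and 0.81% of genes lower). Leaving out GC replicate 3 also called all 4 (0.66% of genes lower) and leaving out PG replicate 3 called Ndufb10 and Ndufb7 (0.408%), while leaving out GC replicate 1, GC replicate 2, PG replicate 1 or PG replicate 2 called 0 (0.265%, 0.123%, 0.139% and 0.16% of genes lower).

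Ndufc2, one of the pair of small membrane-spanning Ndufc proteins, stood at 93.9, 108 and 97.6 CPM in GC and 64.2, 75.4 and 78.4 CPM in PG. Its partner Ndufc1 stood at 133, 115 and 104 CPM in GC and 86.8, 92.0 and 80.3 CPM in PG. Both genes had all PG libraries below all GC libraries, with log2 fold changes of -0.46 ± 0.15 and -0.44 ± 0.15 (adjusted p 0.212 and 0.237, edgeR), so neither passed. Ndufa8, a cysteine-rich protein of the intermembrane side, read 169, 183 and 138 CPM in GC and 112, 112 and 138 CPM in PG, with a log2 fold change of -0.44 ± 0.15. Its replicates 3 met at the same level. Ndufb4, a membrane-arm subunit, read 113, 107 and 85.8 CPM in GC and 77.8, 74.5 and 67.2 CPM in PG, with a log2 fold change of -0.47 ± 0.15. Only 0.439% of Ndufb4 reads were unique, so near-identical copies may share them, and its value is uncertain.

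**Figure D2:**
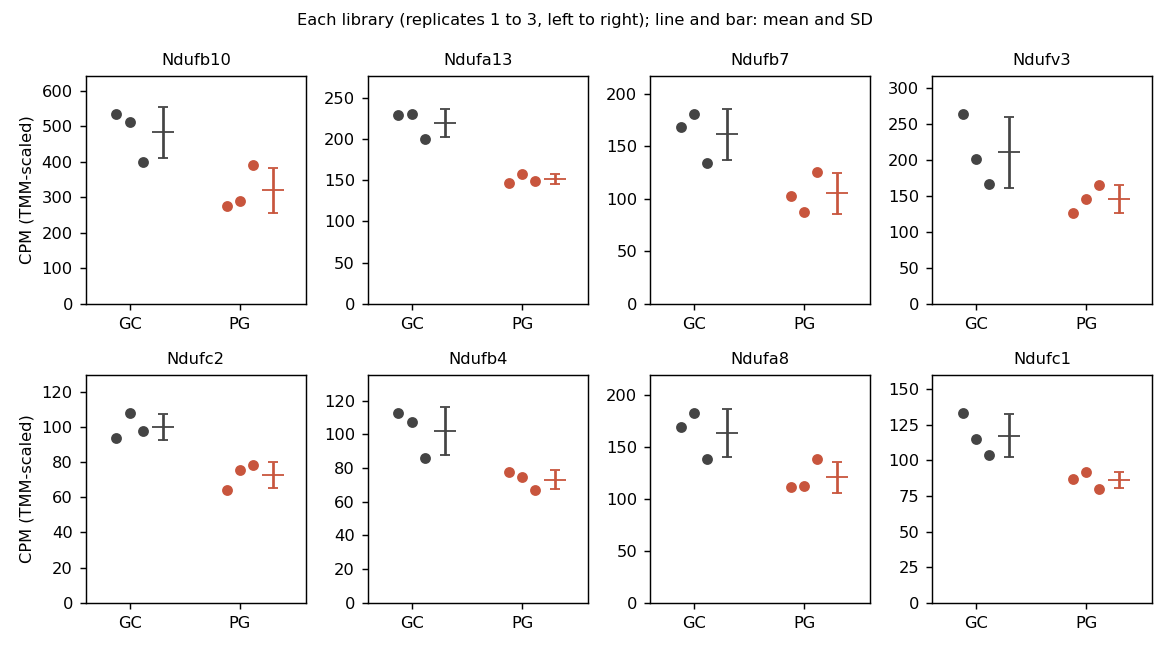
Level in CPM (y axis, from 0) of the 8 members with the smallest p-values in each GC and PG library, replicates 1 to 3 from left to right, with the mean and SD beside them. All PG points lie below all GC points in each panel, and in Ndufb10, Ndufv3 and Ndufa8 replicates 3 of both groups nearly meet.

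The sequences just upstream of 3 of these genes are shown because Ndufb7, Ndufb4 and Ndufa8 are the members among the 8 smallest p-values that carry, before the start site, a motif of a factor known to control respiratory-chain genes. NRF1, GABP (also called NRF2), the estrogen-related receptors (ERR) and YY1 are such factors. The motif letters searched on both strands were GCGC, any base and TGCGC for NRF1, CCGGAAG for GABP, AAGGTCA for ERR and AAGATGGCG for YY1, in RefSeq windows of 250 bases before to 50 after the start site. Each line gives the 250 bases before the start site (RefSeq, GRCm38.p6), read 5′ to 3′ on the gene's strand, with motif matches in capitals.
Ndufb7, chr8:83566508-83566757, plus strand: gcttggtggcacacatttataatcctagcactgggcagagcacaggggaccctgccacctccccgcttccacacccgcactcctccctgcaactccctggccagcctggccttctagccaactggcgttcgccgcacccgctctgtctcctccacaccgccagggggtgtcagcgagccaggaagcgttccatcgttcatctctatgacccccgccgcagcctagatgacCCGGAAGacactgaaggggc
Ndufb4, chr16:37654369-37654618, minus strand: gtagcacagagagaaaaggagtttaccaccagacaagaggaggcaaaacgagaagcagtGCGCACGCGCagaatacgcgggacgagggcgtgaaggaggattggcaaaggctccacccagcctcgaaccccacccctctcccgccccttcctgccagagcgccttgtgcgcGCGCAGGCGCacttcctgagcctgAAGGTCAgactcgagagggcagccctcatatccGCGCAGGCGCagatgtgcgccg
Ndufa8, chr2:36049339-36049588, minus strand: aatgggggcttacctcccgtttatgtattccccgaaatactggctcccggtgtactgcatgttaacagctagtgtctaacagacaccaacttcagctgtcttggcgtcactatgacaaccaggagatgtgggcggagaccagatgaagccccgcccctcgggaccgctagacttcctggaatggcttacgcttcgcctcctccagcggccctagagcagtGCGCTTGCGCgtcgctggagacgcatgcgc

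The capitals mark a GABP match starting 20 bases before the start site of Ndufb7. In Ndufb4 they mark NRF1 matches at 191, 79 and 22 bases before the start and an ERR match at 55 bases, and in Ndufa8 an NRF1 match at 30 bases. Promoters were found for 33 of the 37 members (35 windows). NRF1 letters were present in 22.9% of member windows and 4.60% of all 32851 windows, and YY1 letters in 14.3% and 1.40%. All YY1 matches of members lay after the start site, at offsets of 22 to 35 bases. For GABP the shares were 11.4% and 8.86%, and for ERR 8.57% and 4.72%. At least 1 of the 4 motifs was found in 44.4% of the 18 membrane-arm windows and in 60% of the 15 matrix-arm windows. In all windows the share was 17.8%. The 15 matrix-arm windows belong to 13 genes, and both windows of Ndufa5 hold the same NRF1 match. Counted by gene, NRF1 letters were present in 21.2% of members and 5.19% of all genes. A match describes letters in a window and is not a binding site.

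The remaining members with an unadjusted p under 0.05 were Ndufs8, Ndufa12, Ndufb3, Ndufb11, Ndufs5, Ndufs6 and Ndufb6, with log2 fold changes of -0.44 to -0.31 and adjusted p-values of 0.239 to 0.410 (edgeR). All PG libraries were below all GC libraries in each of these 7, as in 8.25% of all genes tested. The 7 were picked by p on the same libraries, so this adds no separate evidence. Ndufs5, on the intermembrane side, had 3.96% unique reads. Ndufa12, which sits on the matrix arm, had 23.1%, and its log2 fold change of -0.38 became -0.18 on unique reads. Over the group the direction depended less on the choice of reads: 31 of 35 members tested on unique reads had a negative log2 fold change. The values on both kinds of read correlated with r = 0.948 across these 35 genes, which share their libraries and many of their reads. The sizes and calls did move. On unique reads 3 members were called lower (0.623% of all genes were) against 0, and the membrane-arm median was -0.43 against -0.33. At least 90% of reads were unique for 21 members and under 50% for 8.

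Of the 7 catalytic core subunits, 1 (Ndufs8) had an unadjusted p under 0.05, being lower in PG, and 0 were called (edgeR). Among all genes tested 5.62% were lower at that p and 0.581% were called. Ndufv1, which binds NADH and the flavin and was the member with the most reads, stood at 667, 725 and 629 CPM in GC and 585, 649 and 718 CPM in PG. The groups overlapped, and the log2 fold change was -0.05 ± 0.12. Ndufv2, its iron-sulfur partner, read 138, 155 and 140 CPM in GC and 145, 129 and 115 CPM in PG, again with overlap, and its log2 fold change was -0.15 ± 0.14.

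Ndufs1, the largest core subunit and a carrier of several iron-sulfur clusters, read 356, 339 and 310 CPM in GC and 312, 348 and 406 CPM in PG. It was 1 of 3 members with a positive log2 fold change, 0.08 ± 0.13, and its groups overlapped. Ndufs3, a core subunit of the ubiquinone module, read 200, 225 and 202 CPM in GC and 201, 215 and 212 CPM in PG. With a log2 fold change of 0.00 ± 0.13 it was the member nearest to 0, and its 95% interval (normal, from the SE) ran from -0.25 to 0.25. Of its reads 31.3% were unique.

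Ndufs7 holds the last iron-sulfur cluster before the ubiquinone site. It read 299, 292 and 257 CPM in GC and 238, 257 and 288 CPM in PG, with overlap and a log2 fold change of -0.12 ± 0.13. Ndufs8, which carries iron-sulfur clusters close to Ndufs7, read 145, 130 and 113 CPM in GC and 88.2, 94.9 and 105 CPM in PG. Its groups did not overlap, and its log2 fold change was -0.43 ± 0.15 (adjusted p 0.239, edgeR).

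Core genes had a median nearer to 0 than accessory genes, which was described and not tested. The median log2 fold change was -0.15 for the 11 core genes by name, of which 9 were negative, and -0.24 for the 26 accessory genes, of which 25 were negative. With the stricter core the medians were -0.12 for the 7 catalytic subunits and -0.26 for the other 30. By name the difference of the medians, 0.091, became 0.032, 0.139 and 0.052 when GC replicate 1, 2 or 3 was left out, and 0.057 on unique reads. The 4 accessory proteins with a core-type name, Ndufs4, Ndufs5, Ndufs6 and Ndufv3, had a median of -0.38. Non-overlapping groups, PG below GC, were seen in 2 of 7 catalytic subunits and in 17 of the other 30. Such groups were seen in 8.25% of all genes tested.

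The difference in balance was present in every library. Summed core CPM over summed accessory CPM was 0.515, 0.510 and 0.505 in GC replicates 1, 2 and 3 and 0.540, 0.586 and 0.554 in PG. Every PG library was above every GC library, with means of 0.510 ± 0.00517 in GC and 0.560 ± 0.0236 in PG (SD, n = 3). For the catalytic 7 over the other 30 the ratio was 0.368, 0.376 and 0.374 in GC and 0.410, 0.448 and 0.423 in PG, also without overlap. An exact permutation test of 3 against 3 libraries cannot give a two-sided p below 0.1, and none was computed for these ratios.

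The gap between medians was wider by arm of the complex than by core and accessory names. The log2 fold change was below 0 in 19 of 19 membrane-arm members (median -0.33), and 14 had all PG libraries below all GC libraries. Of all genes tested 50.2% were below 0 and 8.25% had all PG libraries below all GC libraries. Of the 16 matrix-arm members 13 were negative, with a median of -0.13, and 5 did not overlap. Summed membrane-arm level was 3804 ± 315 CPM in GC and 3004 ± 215 in PG, and summed matrix-arm level 3668 ± 215 and 3338 ± 229 (SD, n = 3). The ratio of matrix to membrane arm was 0.945, 0.958 and 0.995 in GC and 1.08, 1.15 and 1.11 in PG, so that GC libraries held slightly more membrane-arm reads than matrix-arm reads and PG libraries held fewer. Within the matrix arm the 9 accessory proteins had a median of -0.14, close to the -0.12 of the 7 catalytic subunits. By summed level they lay further apart. The ratio of the PG mean to the GC mean was 0.858 for these accessory proteins and 0.943 for the catalytic subunits. The split by arm was made with earlier results known, and the difference of the arm medians, 0.20, moved to 0.29 on unique reads.

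**Figure D3:**
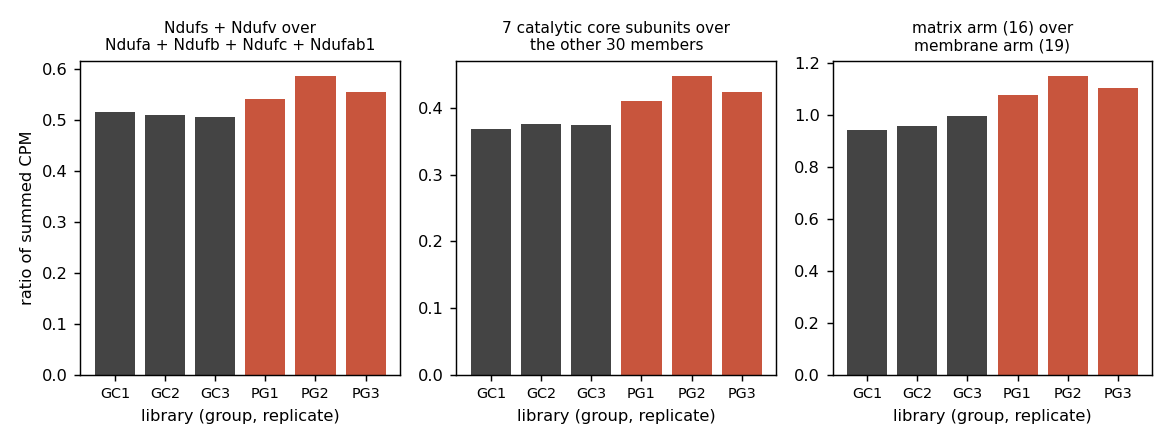
Ratio of summed CPM in each of the 6 libraries (bars from 0, grey GC, red PG) for core over accessory genes by name, for the 7 catalytic subunits over the other 30 members, and for the matrix arm over the membrane arm. In each panel the 3 PG bars stand above the 3 GC bars, and PG replicate 2 is the highest.

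By gene family the Ndufb genes, all of the membrane arm, had a median of -0.32 with 10 of 10 negative and 8 without overlap. Every PG library lay below every GC library in 8.25% of all genes tested. The 2 Ndufc genes had a median of -0.45. The Ndufa genes, spread over both arms, had a median of -0.14 with 12 of 13 negative and 4 without overlap. Ndufa6, a matrix-arm protein that binds the acyl carrier protein, was the accessory member with a positive log2 fold change, 0.19 ± 0.20, at 28.9, 40.9 and 31.7 CPM in GC and 36.9, 36.0 and 43.2 CPM in PG, with overlap. It was also the member with the fewest reads. Ndufa5 (-0.02 ± 0.15), of the matrix arm, lay near 0 as well. Ndufab1, the acyl carrier protein of mitochondrial fatty acid synthesis, had -0.18 ± 0.13 with 16.3% unique reads. Ndufa4, the member now placed in complex IV, had -0.03 ± 0.12.

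On TMM-scaled CPM, replicate 3 of each group lay nearest to the other group. Summed over all members the level was 8478, 8484 and 7597 CPM in GC and 6727, 6747 and 7552 CPM in PG. The groups did not overlap, but GC replicate 3 and PG replicate 3 differed by less than either group's SD (510 and 471 CPM). The ratio of the PG mean to the GC mean was 0.856. GC replicate 3 was the lowest control for 23 of 37 members and PG replicate 3 the highest flown library for 25. PG replicate 3 was also the library in which Lars2 and Tmem38b took the most reads, 52.5%. As a share of all exon reads the members were lowest in PG replicate 3, 0.665%, against 0.738% and 0.722% in PG replicates 1 and 2. Outside Lars2 and Tmem38b the shares were 1.40% in PG replicate 3 and 1.37% and 1.33% in PG replicates 1 and 2. The median deviation of the members from the GC mean was -0.24, -0.32 and -0.15 on the log2 scale in PG replicates 1, 2 and 3. In PG replicate 3 the median was 0.02 for the matrix arm and -0.23 for the membrane arm.

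**Figure D4:**
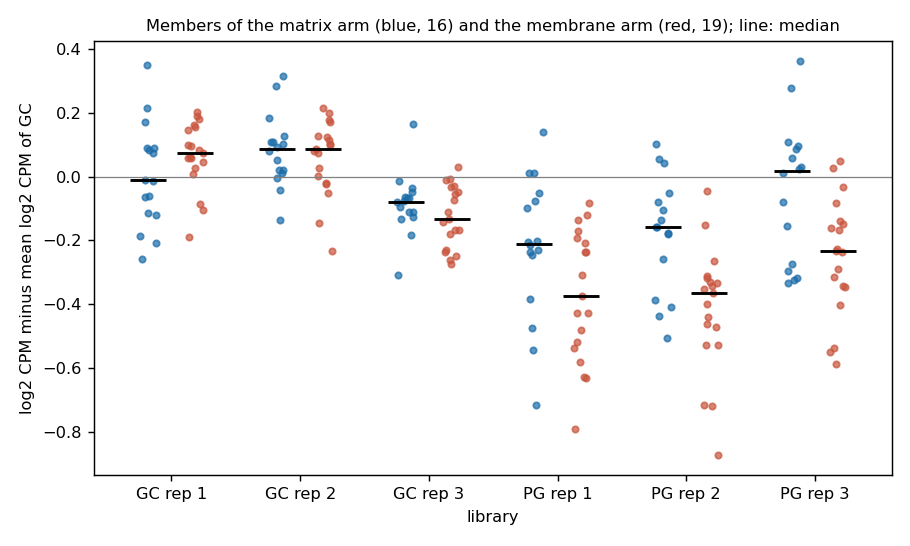
Deviation of log2 CPM from the GC mean (y axis) of each matrix-arm member (blue, 16) and membrane-arm member (red, 19) in each library, with black lines at the medians. The membrane-arm median is -0.37 in PG replicate 1, -0.36 in PG replicate 2 and -0.23 in PG replicate 3, below the matrix-arm median each time.

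Levels between genes can be compared only per length, and the table gives exon length over all annotated exons, UTRs and rare isoforms included. On the scale of CPM per kilobase of exon the members spanned 18.7-fold. Ndufb9, which binds the acyl carrier protein in the membrane arm, was at 569, 562 and 425 in GC and 415, 414 and 467 in PG, and Ndufa2, a thioredoxin-like protein of the matrix arm, at 445, 550 and 463 in GC and 459, 405 and 458 in PG. These 2 genes, the highest, differed by less than their SD (519 ± 81.1 and 486 ± 56.0 in GC). Ndufb11, a membrane-arm subunit encoded on the X chromosome, came next at 432, 448 and 379 in GC and 311, 325 and 374 in PG.

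The lowest levels per kilobase were those of Ndufa11, a membrane-spanning accessory protein (35.3, 46.3 and 40.1 in GC, 36.6, 36.2 and 39.3 in PG), Ndufb7 (37.3, 40.0 and 29.8 in GC, 22.8, 19.3 and 27.8 in PG) and Ndufb2 of the membrane arm (24.8, 31.0 and 24.7 in GC, 23.3, 21.2 and 27.2 in PG). The deposited exon lengths of Ndufb7 and Ndufb2, 4522 and 5628 bases, lie far above most members and pull these values down. In GC the neighbours Ndufa11 (40.5 ± 5.51) and Ndufb7 (35.7 ± 5.32) differed by less than their SD. Across the 37 members the log2 fold change was nearly unrelated to level (r = 0.10 with log2 mean CPM) or to exon length (r = 0.15), as a description of genes that share libraries.

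The subunits encoded by mitochondrial DNA, translated inside the organelle, had the opposite sign. The log2 fold change was above 0 for 7 of 7 mt-Nd genes (median 0.51). In 6 all PG libraries were above all GC libraries (8.06% of all genes tested). Of the 7 genes 2 were called higher, where 23 of all 9124 genes tested were (edgeR). mt-Nd3 read 1112, 1433 and 1311 CPM in GC and 1836, 1749 and 3278 CPM in PG and rose 1.78-fold (adjusted p 0.0216, edgeR). mt-Nd2 read 1329, 1702 and 1677 CPM in GC and 2105, 2141 and 3478 CPM in PG and rose 1.64-fold (adjusted p 0.0321, edgeR). Both were highest in PG replicate 3, and without that library their log2 fold changes of 0.83 and 0.71 became 0.48 and 0.44 (adjusted p 0.0766 and 0.112, edgeR). mt-Nd3 and mt-Nd2 were each called in 11 of 17 alternatives. Neither passed with GC replicate 1 or GC replicate 2 left out, with DESeq2, with gene reads or with the replicate block, at adjusted p-values of up to 0.127 for mt-Nd3 and 0.162 for mt-Nd2. Of the other mt-Nd genes, mt-Nd4 and mt-Nd5 were called in 6 alternatives, mt-Nd4l in 5, mt-Nd1 in 2 and mt-Nd6 in 0. Only 4.22% of mt-Nd3 reads were unique, against 98.1% for mt-Nd2. On unique reads alone their log2 fold changes were 0.84 and 0.71 (adjusted p 0.0187 and 0.00147, edgeR). Summed mt-Nd level over summed nuclear member level was 1.42, 1.70 and 1.95 in GC and 2.57, 2.55 and 3.32 in PG, without overlap. Mitochondria were spun out of the lysates during preparation, and the part of that step in this ratio was not tested.

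Proteins that build complex I without staying in it had a negative median, as its subunits had. The 16 assembly factors in the table had a median log2 fold change of -0.30, and 12 were negative (50.2% of all genes tested were). Of these factors 0 were called (0.581% of all genes), and 1 was lower at an unadjusted p under 0.05 (5.62%, edgeR). In 4 every PG library lay below every GC library (8.25% of all genes). The median SE of the assembly factors was 0.29. Their levels were low, and their summed level was 363 ± 21.5 CPM in GC and 305 ± 2.30 in PG. Foxred1 and Ecsit, the most abundant by total exon reads, had log2 fold changes of -0.22 ± 0.17 and -0.31 ± 0.18. Only 17.1% and 17.3% of their reads were unique, so their rank and values are uncertain.

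The rest of the respiratory chain had the same median. The 41 nuclear genes listed for complexes II to V had a median of -0.20, as the members had, with 38 negative. Without adjustment 11 were lower and 1 was higher (p under 0.05), and 0 were called (edgeR). The shares of all genes tested were 5.62% lower, 4.82% higher and 0.581% called. By complex the median was -0.09 for complex II (4 genes, all negative), -0.29 for complex III (8 of 9 negative), -0.23 for complex IV (12 of 13 negative) and -0.19 for complex V (14 of 15 negative). The most abundant genes, Atp5b and Atp5a1 of the ATP synthase, had log2 fold changes of -0.12 ± 0.11 and -0.21 ± 0.12. None of these lists was set against another with a test.

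**Figure D5:**
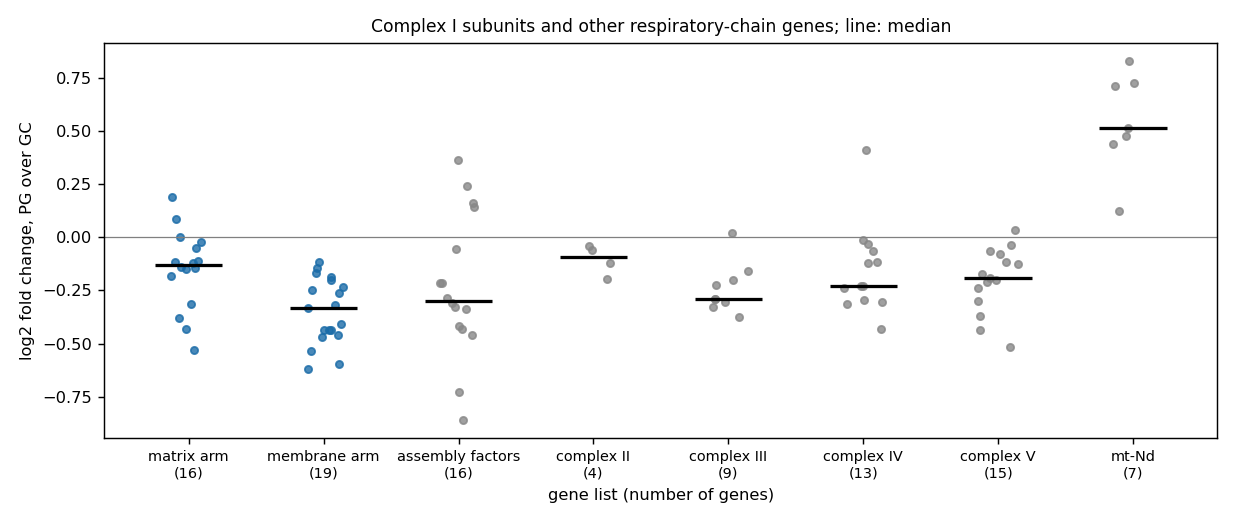
Log2 fold change, PG over GC (y axis), of each gene in the matrix and membrane arms (blue) and in the assembly factors, complexes II to V and mt-Nd genes (grey), with a black line at each median. The medians are negative for every nuclear list, lowest for the membrane arm at -0.33, and 0.51 for the mt-Nd genes.

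By the authors' deposited table, 0 members had an FDR under 0.05 (0.263% of the genes tested here did) and the lowest FDR of a member was 0.346, for Ndufa13. By the authors' deposited table, 34 members were lower in PG, and 13 had a p under 0.05, all of them lower, where 5.18% of the genes tested here did so.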

How the data were processed

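Per the file headers, the authors deposited counts of unique and total exon and gene reads per gene, expression values that are also counts, exon length (another quantity, in bases), and a test of PG against GC with p-values, FDR and a signed fold change (a score here). The aligner, counter and strand handling were not given in the sources used here. The submitters' processing notes name GRCm38 and mm10, and coordinates are the deposited ones, counted from 1. Per the labels' protocols, fragments of 25 to 35 nt were selected. The other 66 columns of per-library values were left out.

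The test on total exon reads was edgeR 4.0.16 (R 4.3.3) over the whole table: filterByExpr with a minimum count of 10, TMM, glmQLFit and glmQLFTest, with group as the only term. Of 16855 genes with a read, 9124 were tested. Standard errors came from the F statistic, CPM are TMM-scaled, and the biological coefficient of variation was 19.5%. The script was tested on simulated data whose planted changes were larger than that of any member. How often changes of the members' size would be called was not tested. DESeq2 1.42.0, limma 3.58.1 (voom), other reads, filters and scalings and each library left out were alternatives. Libraries of 1 group differed by a chi-square of 2.69 to 4.71 per degree of freedom, more than sampling noise. Each was counted once, though this does not show that the libraries come from separate animals. Same-numbered GC and PG libraries did not deviate together (correlations of -0.0083, -0.032 and -0.014), so numbers were not taken as pairs. The labels mention no molecular identifiers, so counts may hold PCR duplicates. Of the members 16 overlap another gene row, none holding 10% or more of the member's reads, and their strand could not be separated.

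The members and lists were chosen with earlier results of these data known. Any member could be named; values per library are given for the 8 smallest p-values, the 3 highest and 3 lowest levels per length, the catalytic subunits and any member called in an alternative; other genes are the mt-Nd genes and up to 2 of the most abundant of a list. Ndufa6 was also given per library after its values were seen. The separate values of 1 member are not reported here, and it stays in the counts, medians and sums. Levels per length use exon length, as no coding length was used here.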

Additional observations from a re-analysis of the deposited data

How the results depend on the processing

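The members' median log2 fold change kept its sign in all 18 alternatives, between -0.27 and -0.15, the latter with library size scaling, which moved the median of all genes by 0.06. The count of members lower in PG (31 to 36) and the core minus accessory difference (0.032 to 0.139 over left-out libraries, 0.091 with all) also kept their direction. The count of members called, 0, became 3 with unique reads, with the authors' expression values, with limma-voom and with a minimum count of 30, and 4 with DESeq2 and with no filter. It ran from 0 to 4 over left-out libraries. The shares of genes called lower in these alternatives are given above. Genes called, 53 of 9124 tested, became 90 of 8342 with unique reads, 88 of 8498 with expression values and 80 of 9124 with limma-voom. DESeq2 called 127 of the 2225 genes to which it gave an adjusted p, and 181 of 16855 were called with no filter. Over left-out libraries the count ran from 19 of 9736 (without GC replicate 2) to 102 of 9388 (without GC replicate 3). With the replicate block 22 genes and 0 members were called and the members' median was -0.20. The difference of matrix and membrane arm medians, an alternative set chosen after seeing the data, became 0.29 with unique reads and 0.31 with expression values, and ran from 0.17 to 0.28 over left-out libraries. Log2 fold changes near 0 changed sign: Ndufa4 to 0.0038 with gene reads and 0.037 with library size scaling (-0.093 to 0.027 over left-out libraries), Ndufa5 to 0.025 with unique reads, 0.0082 with gene reads and 0.034 with library size scaling (-0.13 to 0.064), Ndufs3 to -0.0072 with expression values (-0.025 to 0.056) and Ndufv1 to 5.9e-05 with library size scaling (-0.12 to 0.018). Over left-out libraries Ndufa9 ran from -0.21 to 0.0021, Ndufs1 from -0.019 to 0.17 and Ndufs4 from -0.23 to 0.028. The cause of these changes was not tested. The median SE was 0.14 per member, and no member passed edgeR on total exon reads of all 6 libraries with a minimum count of 10, Ndufb7 at -0.62 included.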
